A study of Acipenser sinensis with 45 samples.

Results

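The comparison described here asked whether the difference between the hypothalamus and the pituitary of the same fish was the same in stage I fish and in males of Acipenser sinensis, the Chinese sturgeon. It rests on 24 of the 45 libraries of the series, chosen by their labels alone. UH and UP are the hypothalamus and pituitary of 6 fish in gonadal stage I, 1 year old, whose sex was not determined, and MH and MP are the same tissues of 6 males in stage II, over 4 years old. All 12 fish came from the artificial breeding population of one institute, none was treated, and the RNA was sequenced on the same Illumina platform. Stage, age and sex differ together between the groups and cannot be told apart. The libraries also differ in the GC content of their reads (the share of G and C bases), which the paper lists. It was higher in the pituitary than in the hypothalamus of every male, but not of every stage I fish. The part of this in the interactions was not tested. The quantity measured is the interaction, (MP minus MH) minus (UP minus UH), on the log2(FPKM + 1) scale, where FPKM is the number of fragments of a unigene scaled to its length and to the mapped fragments of the library, as the authors deposited it. A unigene is an assembled transcript sequence, and an interaction above 0 means that the pituitary stood higher relative to the hypothalamus in males than in stage I fish.

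The hypothalamus is the brain region that releases neurohormones such as gonadotropin-releasing hormone, which reach the pituitary and set its output of gonadotropins. Gonadotropins act on the gonad, and sex steroids from the gonad feed back on both tissues. The table gives no gene name for a unigene, and when its identifiers were looked up among 78555 RefSeq genes of A. sinensis, 0 matched. The unigenes are therefore named by their identifiers, with no statement on function, and a name such as CL12552.Contig2_All marks a contig of a cluster of similar sequences that may share reads.

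The 24 libraries fell by tissue and then by group. On log2(FPKM + 1) of the 91104 unigenes tested, the first principal component held 50.2% of the variance and parted all 12 hypothalamus from all 12 pituitary libraries. The second held 14.7% and parted the 12 libraries of stage I fish from the 12 of males. The nearest library by Pearson's correlation was of the same group for each of the 24 libraries. The tissues were also checked with unigenes chosen from the female libraries, which the comparison did not use: 30 unigenes of the female hypothalamus and 47 of the female pituitary, at 50 FPKM or more in every library of their tissue and at least 20 times the highest value in the other. The hypothalamus set lay at a median of 54.2 to 81.7 FPKM in the 12 hypothalamus libraries and of 1.58 to 3.27 FPKM in the 12 pituitaries. The pituitary set lay at 101.4 to 202 FPKM in the pituitaries and at 0.744 to 4.66 FPKM in the hypothalami. The 2 libraries of male fish 4 carry tissue labels that conflict with the codes in their own titles; the codes were followed, and the levels of both sets in these 2 libraries lay within those of the other males of the tissue the code gives.

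The hypothalami of stage I fish 5 and 6 stood apart from the other 4 UH libraries. On the third principal component (6.14% of the variance) they scored 127 and 132, against -54.9 to 14.6 for UH replicates 1 to 4. They held 68678 and 67325 unigenes at 1 FPKM or more, against 74189 to 79767 in the other UH libraries, and 18.96% and 20.5% of their summed FPKM in the 10 highest unigenes, against 8.83% to 14.3%. The same share was 13.6% to 19.1% in MH, 16.1% to 20.2% in MP and 9.32% to 11.7% in UP. Their pituitary libraries held 76432 and 78856 expressed unigenes, against 76226 to 78518 in UP replicates 1 to 4. On the third component UP replicate 5 scored 31.9 and replicate 6 -29.5, against -27.3 to -11.9, and their 10 highest unigenes took 11.7% and 10.2%, against 9.32% to 11.1%, so UP replicate 5 lay outside the other 4 on both of these measures and replicate 6 on the third component. In the paper's lists the hypothalami of fish 5 and 6 also had the lowest N50, a measure of the length of assembled sequences, among the UH libraries. They had the highest GC content of these libraries as well. What sets them apart was not tested. The main counts are given with and without these 2 fish.

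Of 91104 unigenes, 4971 (5.46%) were called at an adjusted p under 0.05 from limma, 1070 (1.17%) above 0 and 3901 (4.28%) below 0. The sizes of the called interactions ran from 0.47 to 4.64 with a median of 0.98, and 2348 (2.58% of those tested) were 1 or more in size, 663 above 0 and 1685 below 0. The number 2 or more in size was 91 above 0 and 54 below 0. The split between the directions depends on the scaling. The median interaction over all unigenes tested was -0.19, and with median-of-ratios scaling, which centres the libraries on their shared unigenes, it was -0.013; 1945 unigenes (2.13%) were then called above 0 and 1782 (1.96%) below 0. Called with and without scaling, in the same direction, were 1061 above 0 and 1772 below 0, and 0 were called in opposite directions. In bulk tissue, fewer cells of a type and less RNA per cell cannot be told apart, and this holds for every level given here.

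The count also moved with single fish. It ranged from 2100 without male fish 2 to 7383 without stage I fish 1 (6164 of them below 0). It was 2100 to 2933 without male fish 1, 2, 3 or 5 and 2334 to 2899 without stage I fish 3, 4 or 5. Without stage I fish 5 and 6 it was 2003, with 817 above 0 and 1186 below 0, and 1910 with median-of-ratios scaling (1045 above 0 and 865 below 0). Of the 4971 unigenes, 1702 were also called in the same direction without these 2 fish, and 0 changed sign. When the tissues were not paired by fish, 2874 were called, and 115 when male fish 4 had its tissues exchanged to follow the tissue labels. As coded, its hypothalamus scored -120 and its pituitary 150 on the first principal component, each on the side of its coded tissue, so the exchange places each among libraries of the other tissue.

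**Figure D1:**
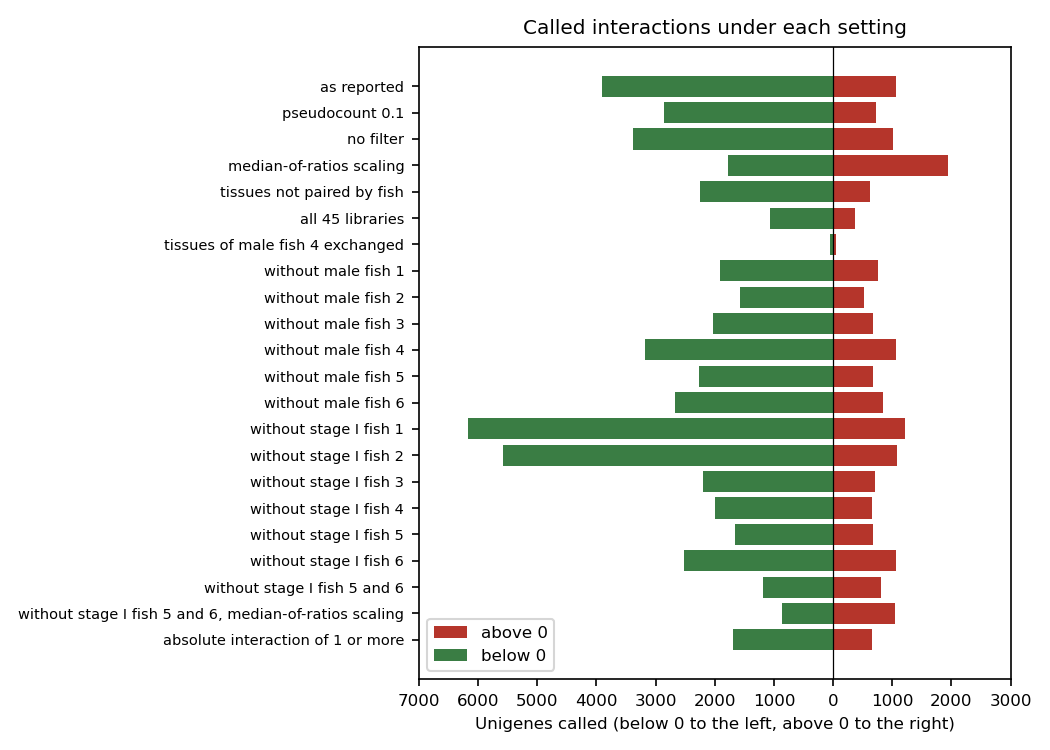
Number of unigenes called in the interaction (adjusted p under 0.05 from limma) under each setting, below 0 to the left and above 0 to the right. As reported there were 3901 below 0 and 1070 above 0; with median-of-ratios scaling the bars are of nearly equal length (1782 and 1945), and with the tissues of male fish 4 exchanged 115 were left.

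In each fish, the 2 tissues were compared over all unigenes tested by 1 minus Pearson's correlation of log2(FPKM + 1). The distance was 0.345, 0.375, 0.371, 0.379, 0.364 and 0.366 in male fish 1 to 6 and 0.288, 0.308, 0.330, 0.318, 0.322 and 0.415 in stage I fish 1 to 6. All 6 males lay above stage I fish 1 to 5 and below stage I fish 6. The means were 0.367 ± 0.0117 (SD, n = 6) in males and 0.330 ± 0.0440 (SD, n = 6) in stage I fish (two-sided exact permutation test, p = 0.0801, adjusted p = 0.0801 over 2 tests). Without stage I fish 6 the difference was 0.0534 (exact permutation p = 0.00216, the smallest it can give), with the groups not overlapping. Leaving out the only stage I fish above the males fixes this outcome in advance. With each fish left out in turn, the exact permutation p ran from 0.00216 to 0.165.

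The number of expressed unigenes (1 FPKM or more) in the pituitary minus that in the hypothalamus was -5620, -1892, 652, 221, 2014 and -4834 in male fish 1 to 6. It was -2339, -2478, 4329, 2881, 7754 and 11531 in stage I fish 1 to 6. The groups overlap, and the mean difference was -1577 ± 3103 (SD, n = 6) in males and 3613 ± 5539 (SD, n = 6) in stage I fish (two-sided exact permutation test, p = 0.0779, adjusted p = 0.0801). At 5 FPKM or more the exact permutation p was 0.0260. At 1 FPKM, with each fish left out in turn, it ran from 0.0346 (without stage I fish 1 or 2) to 0.152. The 2 stage I fish with the largest values are those whose hypothalami stood apart.

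The hypothalamus set chosen in the females stood higher, relative to the hypothalamus, in the pituitaries of most stage I fish than in those of males. For each unigene of the set, the pituitary level was taken in percent of the level in the same fish's hypothalamus. The median of these percentages was 3.96%, 2.79%, 4.28%, 4.42%, 4.40% and 4.08% in stage I fish 1 to 6. It was 2.84%, 2.07%, 1.83%, 2.59%, 1.26% and 2.52% in male fish 1 to 6. Stage I fish 2 lay below male fish 1, and the other 5 stage I fish lay above all 6 males. Median-of-ratios scaling was applied to this set after seeing the data. With it, male fish 1 stood at 3.26% and stage I fish 2 and 6 at 2.92% and 2.83%, and 4 stage I fish lay above all males. No test was made, since the set was chosen after the data were seen. For the pituitary set, the hypothalamus level of each unigene was taken in percent of its pituitary level. The median was 0.856% to 2.06% in stage I fish and 0.807% to 1.54% in males. Of the 30 unigenes of the hypothalamus set, 8 were called below 0 and 0 above 0 (26.7%), with a median interaction of -0.58 (-0.38 with median-of-ratios scaling, where 3 were called). Of the 47 of the pituitary set, 6 were called above 0 and 1, Unigene26300_All, below 0 (14.9%), with a median of 0.25 (0.53 with scaling, 9 above 0 and 0 below). The share called was 5.46% of all unigenes, most of which stood at lower levels than these sets. It was 10.9% of unigenes with a mean of 10 to 100 FPKM in their highest group and 10.2% at 100 to 1000 FPKM. With scaling it was 4.09% of all unigenes. At 10 to 100 FPKM, 584 were then called above 0 and 655 below 0 of 16349. At 100 to 1000 FPKM, 53 and 14 of 616 were. The called members with the largest interactions in each set, named after their values were seen, were Unigene52795_All and CL3014.Contig2_All. Where 3 levels are given for a group, here and below, they are the lowest, median and highest of its libraries. Unigene52795_All held 50.4, 55.4 and 74.8 FPKM in MH, 30.3, 36.1 and 51.8 FPKM in UH, 2.02, 3.52 and 5.38 FPKM in MP and 5.49, 8.71 and 9.45 FPKM in UP (interaction -1.51, adjusted p = 0.00138 from limma). CL3014.Contig2_All held 2.92, 4.64 and 5.79 FPKM in MH, 2.85, 4.37 and 5.55 FPKM in UH, 16.5, 47.2 and 86.4 FPKM in MP and 3.38, 5.71 and 9.95 FPKM in UP (interaction 2.70, adjusted p = 8.11e-04 from limma). The part that RNA of the neighbouring tissue has in the interactions was not tested.

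**Figure D2:**
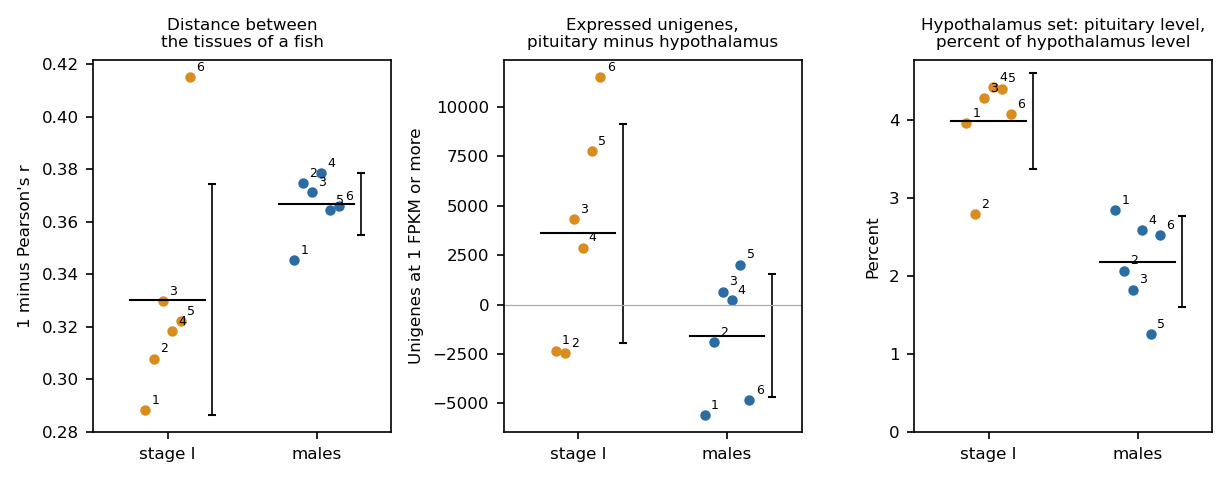
Per-fish measures in stage I fish and males, 1 point per fish labelled with its number, horizontal line = mean, bar at the side = SD. The panels show the distance between the tissues (1 minus Pearson's r) and the expressed unigenes in the pituitary minus the hypothalamus. The third shows the median, over the unigenes of the hypothalamus set, of the pituitary level in percent of the hypothalamus level. Stage I fish 6 has the highest distance (0.415), and 5 of the 6 stage I fish lie above all males in the third panel, which shows values as deposited (4 with median-of-ratios scaling).

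Each called unigene was then placed by its tissue difference in stage I (UP minus UH) and in males (MP minus MH), tested in the same fit. Over all unigenes tested, 54.9% were called in stage I, 33.9% higher and 21% lower in the pituitary, and 49.9% in males, 22.5% higher and 27.3% lower. With median-of-ratios scaling the shares higher and lower were 25.9% and 26% in stage I and 26.1% and 26.7% in males. Among the 1070 interactions above 0, 389 had a tissue difference called in males only, 282 had one of the same direction that was wider in males, 175 had one in stage I only, 116 had one that was narrower in males, and 108 changed direction. Among the 3901 below 0, the numbers were 1060, 1065, 980, 513 and 283 in the same order. No called unigene lacked a called tissue difference in both groups. The thresholds fix this in advance, since far more unigenes passed for the tissue differences than for the interaction. A tissue difference called in males only or wider there made up 62.7% of the interactions above 0 and 54.5% of those below 0. With median-of-ratios scaling these shares were 61.7% and 63.6%, and the number below 0 with a difference in stage I only was 312. As deposited, such a difference held for 32.2% of all unigenes tested, but 32.3% of all were called in neither group, so this share is no like background. Differences in stage I only and narrower in males made up 16.4% and 10.8% of the interactions above 0. Below 0 they made up 25.1% and 13.2%. The shares of all unigenes tested were 17.8% and 17.3%, no like background either, since they include the 32.3% called in neither group. With median-of-ratios scaling, differences in stage I only made up 17.4% of the interactions above 0 and 17.5% of those below 0.

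**Figure D3:**
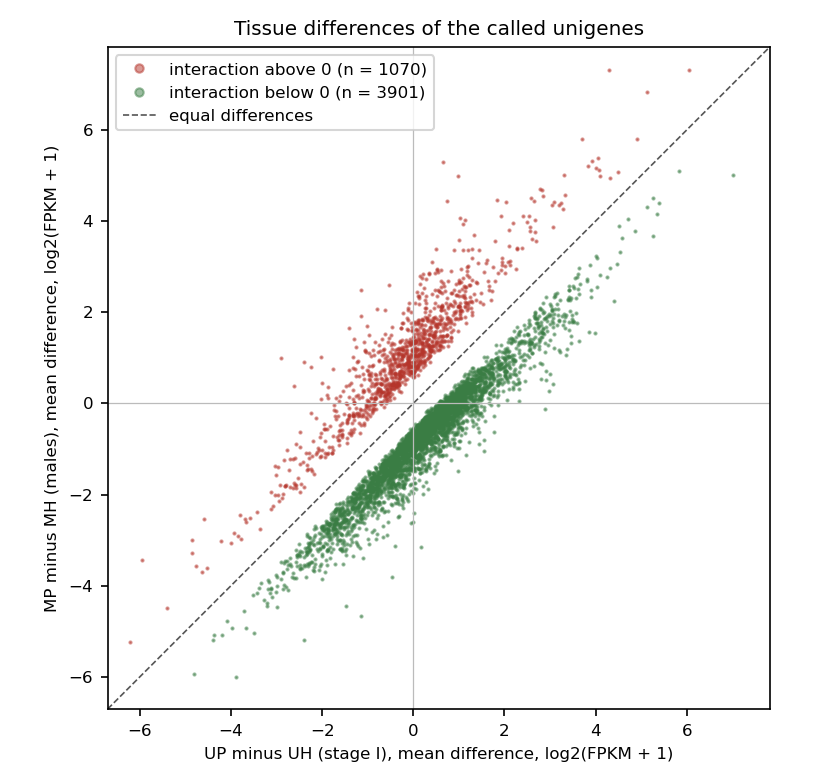
Mean tissue difference (pituitary minus hypothalamus, log2(FPKM + 1)) in stage I fish on the x axis and in males on the y axis for the 4971 called unigenes, 1 point per unigene; the dashed line marks equal differences. Points in the upper left and lower right quadrants have mean differences of opposite sign. Both differences were called in 391 of these points, the only ones counted as changing direction. The band along the line is empty because only called interactions are drawn.

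The levels of each tissue were also compared between stage I fish and males. Over all unigenes tested, 16.1% differed between MH and UH, 7.02% higher and 9.09% lower in males, and 34.5% between MP and UP, 7.37% higher and 27.2% lower. With median-of-ratios scaling the shares higher and lower were 8.63% and 8.7% in the hypothalamus and 13.1% and 13.3% in the pituitary. Of the 4971 called interactions, 3107 had a stage difference in the pituitary and none called in the hypothalamus (pituitary-led), and 899 had one in the hypothalamus and none called in the pituitary (hypothalamus-led). Among all unigenes tested 24.6% were pituitary-led and 6.16% hypothalamus-led, so pituitary-led unigenes outnumbered hypothalamus-led ones in the background too. A further 176 differed in both tissues in opposite directions, 301 in both in the same direction and 488 in neither. They made up 3.54%, 6.06% and 9.82% of the called interactions, against 0.194%, 9.75% and 59.3% of all unigenes tested. Opposite stage differences all but fix the interaction call in advance. These classes use the calls of separate tests, and a stage difference that was not called is not shown to be absent. Among the unigenes called with and without scaling, 605 of 1061 above 0 and 1104 of 1772 below 0 were pituitary-led, and 220 and 373 were hypothalamus-led. Without stage I fish 5 and 6, 1111 of the 2003 called interactions were pituitary-led and 485 hypothalamus-led, and in 256 the tissue difference changed direction (reversed).

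Pituitary-led unigenes numbered 606 above 0 and 2501 below 0, and 1189 and 903 with median-of-ratios scaling, so the direction with the larger count turned with the scaling. The 2501 with an interaction below 0 as deposited had a median difference of -0.89 between MP and UP and of 0.069 between MH and UH. In stage I, 1331 of them were higher in the pituitary than in the hypothalamus and 556 were lower, while in males 422 were higher and 1370 lower. The 606 pituitary-led unigenes above 0 had a median difference of 1.07 between MP and UP and of -0.034 between MH and UH. Of these, 207 were higher in the pituitary in stage I and 490 in males. Among the 672 hypothalamus-led unigenes below 0, the level was higher in MH than in UH by a median of 0.85, and 559 were higher in the hypothalamus than in the pituitary of males, against 304 in stage I. The 227 hypothalamus-led unigenes above 0 were lower in MH by a median of -1.12, and 134 were higher in the hypothalamus in stage I, against 55 in males. Of all unigenes tested, 33.9% were called higher and 21% lower in the pituitary in stage I, and 22.5% and 27.3% in males. These medians and counts describe classes formed with the same libraries. Choosing by the sign of the interaction builds in the shift of the tissue difference between stage I fish and males.

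**Figure D4:**
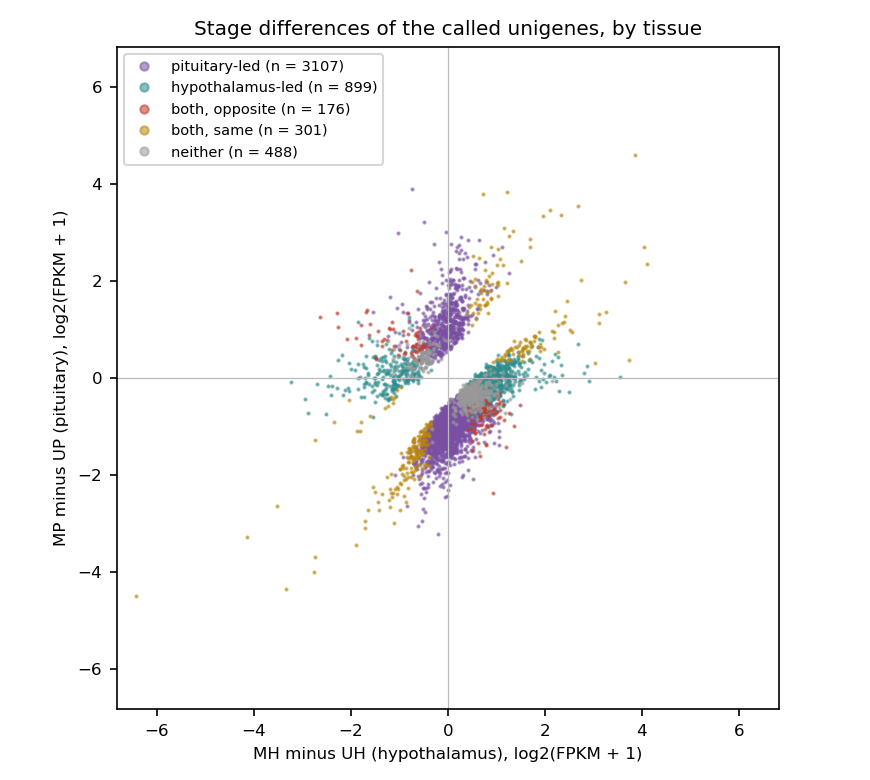
Difference between males and stage I fish in the hypothalamus (x axis) and in the pituitary (y axis), log2(FPKM + 1), for the 4971 called unigenes, coloured by the tissue in which the stage difference was called. The 3107 pituitary-led unigenes lie along the vertical axis, 2501 of them with an interaction below 0 (903, against 1189 above 0, with median-of-ratios scaling), and the 899 hypothalamus-led unigenes along the horizontal axis.

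The 2 highest interactions belonged to unigenes with a high level in the male pituitary. CL12552.Contig2_All had a lowest, median and highest level of 39.6, 115 and 304 FPKM in MP and 6.02, 6.86 and 11.4 FPKM in UP. It stood at 0.7904, 1.97 and 4.74 FPKM in MH and 1.87, 4.46 and 9.68 FPKM in UH, so every MP library lay above all libraries of the other 3 groups. Within fish, the pituitary exceeded the hypothalamus by 4.50 to 6.27 in males and differed by -0.39 to 1.29 in stage I. The interaction was 4.64 (standard error 0.31, adjusted p = 1.82e-05 from limma). The 3 female pituitaries, not used in the test and 2 of them sequenced on another platform, held 28.97, 144 and 238 FPKM and the 3 female hypothalami 2.46, 3.06 and 31.5 FPKM. Unigene65054_All held 38.2, 56.97 and 80.4 FPKM in MP, 3.51, 5.48 and 13.6 FPKM in UP, 0.2595, 0.469 and 3.73 FPKM in MH and 0.4700, 3.09 and 4.97 FPKM in UH. It too was higher in every MP library than in any library of the other 3 groups, with an interaction of 4.01 (standard error 0.45, adjusted p = 9.03e-04 from limma). The female pituitaries held 24.2, 34.1 and 79.7 FPKM of it and the female hypothalami 1.36, 4.22 and 219 FPKM. That of female 3 was the highest of the hypothalami and lay above all female pituitaries.

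The 2 lowest interactions belonged to unigenes with a high level in the male hypothalamus. CL11707.Contig3_All held a lowest, median and highest level of 17.9, 21.8 and 46.9 FPKM in MH and 0.0458, 2.002 and 3.16 FPKM in UH. In the pituitary it was listed at 0 in 3 UP and 2 MP libraries and reached 0.277 FPKM in UP and 0.298 FPKM in MP. The MH libraries thus stood above every other library of the comparison, with an interaction of -3.52 (standard error 0.35, adjusted p = 5.84e-04 from limma). The female hypothalami held 0, 0 and 0.0723 FPKM, and the stage I and male gonads at most 0.213 and 0.0946 FPKM. CL1154.Contig9_All showed the same order, at 9.38, 20.5 and 28.6 FPKM in MH, 0.142, 0.515 and 1.17 FPKM in UH, 0.1604, 0.474 and 0.749 FPKM in MP and 0, 0.0741 and 0.373 FPKM in UP. Its interaction was -3.36 (standard error 0.23, adjusted p = 1.82e-05 from limma), and its female hypothalami held 0, 0.256 and 1.64 FPKM.

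Of the hypothalamus-led unigenes above 0, Unigene1360_All was high in the pituitary of both groups, with 60.6, 160.5 and 386 FPKM in UP and 93.2, 369 and 896 FPKM in MP. Its hypothalamus level was 3.27, 6.58 and 14.3 FPKM in UH and 0.446, 0.951 and 3.31 FPKM in MH, values that overlap only at the edge, and the stage difference there was -1.86 (adjusted p = 0.00162 from limma). The tissue difference was 4.29 in stage I and 7.31 in males, an interaction of 3.02 (standard error 0.47, adjusted p = 0.00402 from limma). Unigene8998_All stood at 3.57, 11.2 and 19.3 FPKM in UH, 0.685, 0.937 and 2.65 FPKM in MH, 8.42, 11.04 and 13.6 FPKM in UP and 9.89, 14.8 and 18.3 FPKM in MP. Its MH libraries were thus the low ones, below all libraries of the other 3 groups, with an interaction of 2.64 (adjusted p = 0.00134 from limma). Of those below 0, CL269.Contig4_All held 13.97, 34.5 and 55.01 FPKM in MH, 0.9895, 4.09 and 7.52 FPKM in UH, and at most 1.08 FPKM in UP and 0.778 FPKM in MP. Unigene49045_All held 39.8, 65.4 and 68.9 FPKM in MH, 3.25, 12.1 and 16.5 FPKM in UH, and at most 2.28 FPKM in UP and 1.35 FPKM in MP. For both, every MH library exceeded every UH library, and the interactions were -2.97 and -2.80 (adjusted p = 0.00208 and 0.00142 from limma). The female hypothalami held 0.402, 0.458 and 0.709 FPKM of CL269.Contig4_All and 0, 1.82 and 7.04 FPKM of Unigene49045_All, and in these, as in CL11707.Contig3_All and CL1154.Contig9_All, every female hypothalamus lay below every MH library.

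Of the pituitary-led unigenes above 0, Unigene53568_All held 9.13, 17.8 and 40.8 FPKM in MP and 0.525, 2.09 and 4.06 FPKM in UP. It held 6.55, 8.93 and 12.5 FPKM in MH and 6.89, 12.7 and 14.9 FPKM in UH. In stage I the hypothalamus was the higher tissue in all 6 fish and in males the pituitary in all 6, with tissue differences of -2.03 and 1.03 and an interaction of 3.05 (standard error 0.35, adjusted p = 9.66e-04 from limma). CL13983.Contig2_All stood at 16.1, 27.7 and 57.8 FPKM in MP, 1.14, 2.48 and 11.9 FPKM in UP, 0.4595, 0.849 and 1.09 FPKM in MH and 0.264, 0.952 and 1.52 FPKM in UH. Every MP library lay above all others of the comparison, with an interaction of 3.05 (adjusted p = 0.00208 from limma). The female pituitaries held 324, 462 and 1509 FPKM and the female hypothalami 0.421, 2.74 and 395 FPKM, the highest of the hypothalami being that of female 3. Of those below 0, Unigene1390_All held 9.34, 37.97 and 46.2 FPKM in UP and 1.299, 1.85 and 3.67 FPKM in MP, against 1.86, 2.86 and 3.297 FPKM in UH and 1.64, 2.197 and 3.21 FPKM in MH. Its tissue difference was 2.89 in stage I and -0.13 in males (interaction -3.01, adjusted p = 9.66e-04 from limma), the UP libraries being the high ones. Unigene31679_All held 1.22, 1.64 and 3.67 FPKM in MP, below every library of UP (8.61 to 18.97 FPKM), UH (4.35 to 28.8 FPKM) and MH (9.53 to 18.7 FPKM). Its interaction was -2.42 (adjusted p = 0.00688 from limma).

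In 391 unigenes both tissue differences were called and had opposite directions, 108 with an interaction above 0 and 283 below 0. With median-of-ratios scaling the split turned to 226 and 123. These 391 are all such unigenes among those tested (0.429%), and each was called in the interaction. The definition all but fixes that call in advance, since it asks for called differences of opposite sign. CL11832.Contig1_All was higher in the hypothalamus in all 6 stage I fish, at 3.66, 11.8 and 35.6 FPKM in UH against 3.03, 4.09 and 8.85 FPKM in UP. In all 6 males it was higher in the pituitary, at 2.68, 17.3 and 31.3 FPKM in MP against 0.737, 1.48 and 3.03 FPKM in MH. The tissue differences were -1.14 and 2.49, and the interaction was 3.63 (standard error 0.52, adjusted p = 0.00257 from limma). CL1907.Contig2_All was higher in males in both tissues, at 15.4, 40.8 and 62.7 FPKM in MP and 7.21, 8.95 and 12.4 FPKM in MH against 0.559, 1.89 and 3.99 FPKM in UP and 3.93, 5.15 and 6.29 FPKM in UH. The larger stage difference was that of the pituitary (3.80, against 0.73 in the hypothalamus), so that the order of the tissues turned (interaction 3.06, adjusted p = 9.66e-04 from limma). In the other direction, Unigene16938_All held 21.4, 30.1 and 32.4 FPKM in UP and 5.59, 6.56 and 14.03 FPKM in UH, but 2.04, 2.77 and 3.43 FPKM in MP and 3.41, 4.65 and 6.55 FPKM in MH. Unigene56099_All held 3.29, 11.9 and 20.5 FPKM in UP and 2.11, 3.27 and 4.204 FPKM in UH, and 1.25, 1.99 and 2.76 FPKM in MP and 2.37, 4.61 and 5.198 FPKM in MH. Both were higher in the pituitary of all 6 stage I fish and in the hypothalamus of all 6 males, with interactions of -2.40 and -2.34 (adjusted p = 8.11e-04 and 0.00108 from limma).

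In 176 called unigenes the level differed between stage I fish and males in both tissues and in opposite directions. Their interaction was above 0 in 63 and below 0 in 113, and with median-of-ratios scaling the split turned to 84 and 58. Of all unigenes tested, 177 (0.194%) had such stage differences, so here too the definition all but fixes the interaction call. CL9260.Contig3_All held 9.17, 11.3 and 16.7 FPKM in UH and 4.56, 5.97 and 10.5 FPKM in MH, but 0.395, 1.098 and 2.21 FPKM in UP and 2.86, 9.05 and 35.5 FPKM in MP. The within-fish difference was -3.02 to -2.20 in stage I, and the males spread on both sides of 0 (-0.80 to 2.01). CL15609.Contig2_All held 3.25, 12.4 and 30.9 FPKM in UH and 1.32, 2.71 and 5.26 FPKM in MH, and 10.8, 16.96 and 30.6 FPKM in UP and 20.4, 37.9 and 57.1 FPKM in MP. Their interactions were 2.99 and 2.88 (adjusted p = 0.00151 and 0.00193 from limma). Unigene53249_All showed the opposite course, at 12.2, 25.2 and 44.4 FPKM in UH and 34.3, 52.4 and 67.5 FPKM in MH, and 22.1, 29.2 and 39.2 FPKM in UP and 1.37, 5.91 and 9.08 FPKM in MP. Unigene60308_All held 0, 0.709 and 1.21 FPKM in UH and 1.25, 2.804 and 4.71 FPKM in MH, and 5.62, 13.7 and 18.8 FPKM in UP and 2.79, 3.53 and 7.41 FPKM in MP. For these the interactions were -3.31 and -2.63 (adjusted p = 0.00142 and 0.00142 from limma). In all 4 the within-fish differences of males and stage I fish did not overlap, which the rule for naming required of the 20 unigenes and which held for 3.51% of all unigenes tested. All 20 were also called, in the same direction, with median-of-ratios scaling and without stage I fish 5 and 6, which their choice as extremes favours. Of all 4971 called unigenes, 57.0% and 34.2% were. When the tissues of male fish 4 were exchanged, 14 of the 20 were no longer called. Of all 4971, 2.25% were then still called in the same direction, and 206 changed sign.

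**Figure D5:**
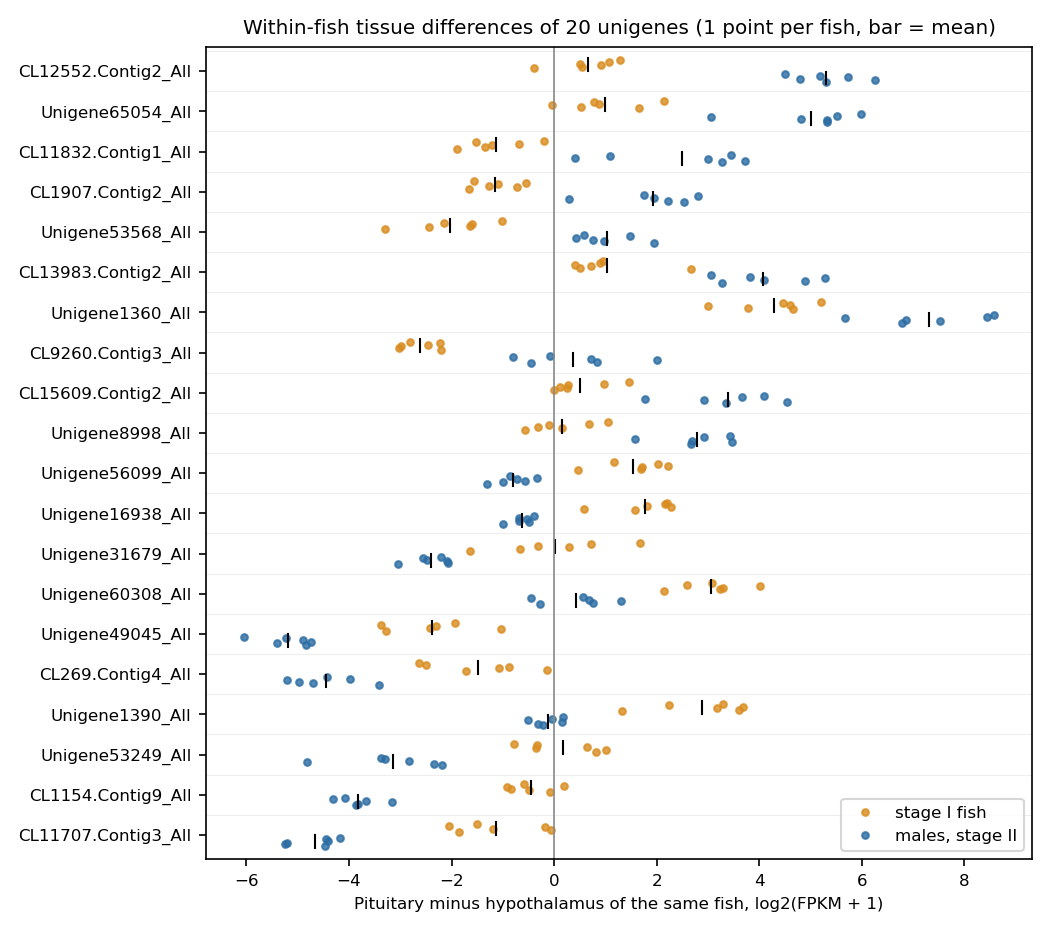
Pituitary minus hypothalamus of the same fish on the log2(FPKM + 1) scale for the 20 unigenes named by the rule, 1 point per fish, stage I fish and males in separate colours, black bar = mean of the 6 fish, ordered by the interaction. The groups do not overlap in any of them, as the rule requires; the interactions run from 4.64 for CL12552.Contig2_All to -3.52 for CL11707.Contig3_All.

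The most abundant unigenes, chosen by level and not by change, did not pass the interaction test. Unigene9682_All, the highest in the pituitary, held 14657, 17436 and 27501 FPKM in UP and 19991, 29157 and 39249 FPKM in MP. In the hypothalamus it held 1.49, 5.18 and 44.6 FPKM in UH and 1.82, 17.1 and 193 FPKM in MH, and its within-fish difference spread over 8.64 to 12.80 in stage I and 7.66 to 13.18 in males. The groups overlapped (interaction -0.52, standard error 0.86, adjusted p = 0.7400 from limma). CL4441.Contig2_All held 3090, 5910 and 8257 FPKM in UP and 9961, 14091 and 24659 FPKM in MP, with no overlap, a stage difference of 1.42 in the pituitary (adjusted p = 0.00548 from limma). Its hypothalamus levels reached 48.1 FPKM in UH and 122 FPKM in MH, and the interaction was -0.56 (standard error 1.03, adjusted p = 0.7695 from limma). Unigene62915_All, the third in the pituitary, was the highest of all in the hypothalamus. It held 18287, 34643 and 51737 FPKM in UH, 28756, 38207 and 49328 FPKM in MH, 6617, 9443 and 10534 FPKM in UP and 7619, 10455 and 16084 FPKM in MP, with nearly equal tissue differences of -1.83 and -1.82 (interaction 0.01, standard error 0.25). CL7009.Contig1_All and CL6956.Contig1_All, next in the hypothalamus, had interactions of 0.34 and -0.18 (standard errors 0.20 and 0.24, adjusted p = 0.293 and 0.662 from limma).

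The share of called unigenes was larger among the more abundant ones. It was 4.26% of 73318 unigenes with a mean of 1 to 10 FPKM in their highest group, 10.9% of 16349 at 10 to 100 FPKM and 10.2% of 616 at 100 to 1000 FPKM. Of 49 unigenes at 1000 FPKM or more, 4 were called, and these were singled out after their values were seen. CL18661.Contig1_All held 1390, 1508 and 1745 FPKM in MP, 455, 610.4 and 893 FPKM in UP, 221, 266 and 373 FPKM in MH and 242, 400.5 and 599 FPKM in UH (interaction 1.86, standard error 0.26, adjusted p = 0.00205 from limma). Its MP libraries were the highest of the 24. Unigene6145_All held 798, 1761 and 2549 FPKM in MP and 523, 625 and 951 FPKM in UP (interaction 1.38, adjusted p = 0.00943 from limma). Unigene30343_All held 646, 1068 and 1408 FPKM in MP and 323, 381 and 489 FPKM in UP (interaction 1.27, adjusted p = 0.0205 from limma). Both had levels in the hypothalamus that overlapped between UH and MH, 32.8 to 50.5 against 33.4 to 50.5 FPKM and 3.52 to 9.93 against 4.13 to 8.54 FPKM, and both belong to the pituitary set. Unigene16721_All, higher in the hypothalamus, held 119, 178 and 211 FPKM in MP and 219.7, 247 and 269.7 FPKM in UP (interaction -0.87, adjusted p = 0.0214, and 0.155 with median-of-ratios scaling, both from limma).

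Contigs of clusters and single unigenes were called about equally often, 5.29% of 46592 contigs and 5.63% of 44512 single unigenes. Of 13312 clusters with 2 or more tested contigs, 1598 held 1 or more called contigs, and in 152 all tested contigs were called. In 372 clusters 2 or more contigs were called. The called contigs were all above 0 in 83 of these and all below 0 in 277, while 12 held called contigs in both directions. Contigs of a cluster may share reads and are not independent of each other.

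The females of stage II and the gonads, not part of the test, are given beside the 2 contrasts as a description; females 2 and 3 were sequenced on another Illumina platform than all other fish. Over the 1070 unigenes above 0, the median tissue difference was -0.11 in stage I fish, 1.05 in males and 0.27 in the 3 females (FP minus FH). Over the 3901 below 0 it was 0.27, -0.66 and 0.049. Over all unigenes tested the medians were 0.17, -0.0049 and 0.18. The female difference was closer to that of the males than to that of stage I fish for 47.7% of the unigenes above 0 and 42.5% of those below 0, against 46.5% of all unigenes tested, shares near that background. In the gonad, the male level exceeded that of stage I fish for 67.4% of the unigenes above 0 and 66.6% of those below 0, against 71.3% of all. Among the hypothalamus-led unigenes it did so for 48.5% of those above 0 and 82.1% of those below 0, and among the pituitary-led for 74.8% and 62.3%. These classes were formed with the hypothalamus and pituitary levels of the same fish, and no test was made. The gonad levels are as deposited, without scaling, and their median difference between males and stage I fish over all unigenes tested was 0.29.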

How the data were processed

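Both tissues of 12 fish gave 24 RNA libraries. Read filtering by the authors used SOAPnuke, assembly used Trinity and then TGICL, and mapping used SOAP2. The authors deposited FPKM from RSEM for 121952 unigenes, without counts. The study lists the reads of each library, but the reads behind a value cannot be had from the table, and a 0 may be a failed estimate. All 45 sample columns have a label and 0 other columns were present. Groups follow the labels, and the tissues of male fish 4 follow the code in the title.

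The interaction was fitted with limma 3.58.1 in R 4.3.3 (lmFit, eBayes with a trend) on log2(FPKM + 1) with the fish as a block, over the 91104 unigenes that reached 1 FPKM in 6 or more of the 24 libraries, with Benjamini-Hochberg adjustment over all of them and a threshold of 0.05. Both tissues of a number were taken to come from the same fish. Their deviations from the group means correlated at 0.223 to 0.370 in males and 0.124 to 0.431 in stage I, best with the own fish in 6 of 6 and 5 of 6. In stage I fish 6 (0.124) the hypothalamus correlated better with the pituitary of another stage I fish. Stage differences were fitted per tissue without a block. Measures per fish were compared by exact permutation over 924 regroupings. The pseudocount understates changes of low unigenes. The fit was tested on simulated data.

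The unigenes named are, among those called, averaging at least 10 FPKM in their highest group and with no overlap between the within-fish differences, the 2 highest and 2 lowest interactions of all, then of the hypothalamus-led, pituitary-led, reversed and opposite classes, passing over those already named, and the 3 most abundant unigenes of each tissue. The members, classes and rules were chosen with earlier results of these data known. Alternatives were another pseudocount, no filter, median-of-ratios scaling, no block, all 45 libraries, exchange of male fish 4, a minimum size, each fish left out and, chosen after seeing the data, stage I fish 5 and 6 left out. The 2 tissue sets from the females were also chosen after seeing the data. Figures were drawn with Matplotlib 3.10.9 in Python 3.11.15.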

Additional observations from a re-analysis of the deposited data

Results flagged for a closer look

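The tissue difference differed between stage I fish and males in 4971 unigenes by the interaction test, 20 of which were named by the rule. Their interactions were 4.64 (CL12552.Contig2_All), 4.01 (Unigene65054_All), 3.63 (CL11832.Contig1_All), 3.06 (CL1907.Contig2_All), 3.05 (Unigene53568_All), 3.05 (CL13983.Contig2_All), 3.02 (Unigene1360_All), 2.99 (CL9260.Contig3_All), 2.88 (CL15609.Contig2_All) and 2.64 (Unigene8998_All). Below 0 they were -2.34 (Unigene56099_All), -2.40 (Unigene16938_All), -2.42 (Unigene31679_All), -2.63 (Unigene60308_All), -2.80 (Unigene49045_All), -2.97 (CL269.Contig4_All), -3.01 (Unigene1390_All), -3.31 (Unigene53249_All), -3.36 (CL1154.Contig9_All) and -3.52 (CL11707.Contig3_All).

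In 58 groups of 6 fish, 3 held a fish far from the others by Dixon's criterion, which chance alone passes in about 1 of 20 groups. Stage I fish 6 had the highest distance between its tissues, 0.415 against 0.288 to 0.330 in the other stage I fish. In stage I fish 2 the unigenes of the hypothalamus set stood in the pituitary at a median of 2.79% of their hypothalamus level. The other stage I fish stood at 3.96% to 4.42%. Stage I fish 1 had a within-fish difference of 2.68 for CL13983.Contig2_All, the highest of its group, against 0.40 to 0.94 in the others.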

How the results depend on the processing

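The split of the 4971 called interactions into 1070 above 0 and 3901 below 0 rests on the scaling (1945 and 1782 with median-of-ratios scaling). With the tissues not paired by fish (no replicate block), 2874 were called, 620 above 0 and 2254 below 0, with 544 hypothalamus-led, 1969 pituitary-led and 211 reversed. In 1 fit over all 45 libraries with the fish as a block, 1450 were called (377 and 1073). With the tissues of male fish 4 exchanged, 115 were called (56 and 59), with 13 hypothalamus-led, 74 pituitary-led and 0 reversed, and 14538 had an unadjusted p under 0.05 from limma. With a minimum size of 1, 2348 were called (663 and 1685). With a pseudocount of 0.1, 551 were hypothalamus-led. Without stage I fish 5 and 6, 2003 were called, 1186 of them below 0, with 485 hypothalamus-led, 1111 pituitary-led and 256 reversed; with scaling besides, the counts were 1910, 865, 504, 1039 and 242 in the same order.

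Without 1 fish, the counts ranged from 2100 to 7383 in all, 530 to 1219 above 0, 1570 to 6164 below 0, 383 to 1260 hypothalamus-led, 1336 to 4593 pituitary-led and 200 to 549 reversed, lowest without male fish 2 and highest without stage I fish 1. The male minus stage I difference in the distance between tissues was 0.0541 with a pseudocount of 0.1 (exact permutation p = 0.0238) and 0.0594 with Spearman's correlation (exact permutation p = 0.0216). It ranged from 0.0281 to 0.0534 without 1 fish (exact permutation p from 0.00216 to 0.165). That in expressed unigenes was -5545 at 5 FPKM (exact permutation p = 0.0260) and ranged from -6408 to -3606 without 1 fish (exact permutation p from 0.0346 to 0.152). The 20 named unigenes kept their direction in every alternative and their call in all but 15 of 400 fits, 14 with the tissues of male fish 4 exchanged and 1, CL9260.Contig3_All, with all 45 libraries (adjusted p = 0.0687 from limma). The table holds FPKM and no counts per unigene, so no interval for counting error can be given.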
